A study of Mus musculus with 12 samples.

Results

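The stress axis was examined as 8 genes: Crh, Avp, Pomc, Crhr1, Nr3c1, Nr3c2, Fkbp5 and Sgk1. Their measured positions were the cytosines of CpG dinucleotides within each gene body or up to 2000 bp upstream of it (GENCODE vM21 basic annotation, mm10 assembly) that had 10 or more reads in at least 6 of the 12 libraries. This rule found 1778 of the 2156659 cytosines so covered in the whole series, and 865 of the 980547 that were covered in all 12 libraries. Only the 865 entered tests. A further 480 cytosines of these loci were covered in fewer than 6 libraries and were not used.

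The method was reduced representation bisulfite sequencing (RRBS), which cuts DNA at CCGG with the enzyme MspI and so reads mainly CpG-rich stretches. Bisulfite converts unmethylated cytosines, so that the share of reads still showing C is the methylation level. The tissue mixed hippocampus with cortex, from mice of about 11 months: 3 wild-type (Wt) females, 1 Wt animal labelled male, 4 Tg2576 (Tg) females and 4 Tg males. Tg2576 mice carry a transgene for human amyloid precursor protein with a familial Alzheimer's disease mutation, driven by a prion promoter, and the Wt animals came from the same supplier. A level in such tissue is a share of reads over all cell types, so that a different mix of cells and a different level within one cell type cannot be told apart.

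In the stress response, corticotropin-releasing hormone (Crh) and vasopressin (Avp) from hypothalamic neurons drive the release of corticotropin, which is cut from the Pomc precursor in the pituitary and makes the adrenal secrete glucocorticoids. Crhr1 is the main receptor for Crh in the brain. Glucocorticoids bind the mineralocorticoid receptor Nr3c2 and the glucocorticoid receptor Nr3c1, both abundant in hippocampal neurons, and the co-chaperone Fkbp5 and the kinase Sgk1 are classical genes switched on by these receptors. Methylation of CpG-rich promoters is a mark of stable silencing, whereas most CpGs outside such promoters are methylated in mammalian tissue.

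The sequences below surround the cytosines on which the comparisons turn. They are the mm10 (GRCm38) plus strand, with the measured CpG in capitals. The first 4 windows hold the cytosines called different between genotypes by a binomial model described further on, and the others hold, for each of 5 genes, the cytosine whose level ranged most widely among animals out of those covered in all 12 libraries.

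Crhr1, intron 8, chr11:104171320-104171361: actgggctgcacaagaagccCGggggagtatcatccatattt
Crhr1, intron 8, chr11:104171435-104171476: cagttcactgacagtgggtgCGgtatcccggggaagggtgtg
Fkbp5, intron 2 of Fkbp5-202, chr17:28506963-28507004: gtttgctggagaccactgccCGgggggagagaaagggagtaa
Nr3c2, intron 3 of Nr3c2-204, chr8:77133063-77133104: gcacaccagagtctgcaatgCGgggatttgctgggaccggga
Nr3c2, intron 2 of Nr3c2-204, chr8:77009521-77009562: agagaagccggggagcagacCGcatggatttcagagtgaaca
Crh, coding part of exon 2, chr3:19694080-19694121: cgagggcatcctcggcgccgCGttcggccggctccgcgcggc
Avp, intron 1, chr2:130581356-130581397: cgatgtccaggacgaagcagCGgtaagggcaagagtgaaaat
Sgk1, coding part of exon 12 of Sgk1-201, chr10:21998734-21998775: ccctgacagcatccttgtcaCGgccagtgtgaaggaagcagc
Pomc, intron 1, chr12:3955118-3955159: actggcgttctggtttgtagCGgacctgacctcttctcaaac

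The first Crhr1 cytosine and the Fkbp5 cytosine lie inside a CCGG, the sequence that MspI cuts, and the other 7 do not. Among the tested cytosines, 15.7% of those in the 8 genes and 17.0% of all lie in a CCGG. Over all tested cytosines, the binomial model called 3.32% of those in a CCGG and 1.40% of those outside it. In the 8 genes it called 2 (1.47%) in a CCGG and 2 (0.274%) outside it. Why calls were more frequent in the cut sequence was not tested. Fkbp5, Crh and Avp are on the minus strand, so that transcription runs from right to left in their windows.

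The starts of Sgk1 show the range of levels in these loci. The next windows are the 150 bases before the start of transcripts Sgk1-213 and Sgk1-201, from the RefSeq promoter table for the plus strand (mm10), with the CpGs of measured cytosines in capitals.

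Sgk1-213, chr10:21978522-21978671: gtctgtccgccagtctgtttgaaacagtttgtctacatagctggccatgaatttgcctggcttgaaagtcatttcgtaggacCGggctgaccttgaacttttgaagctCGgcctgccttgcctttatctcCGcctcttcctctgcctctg
Sgk1-201, chr10:21994516-21994665: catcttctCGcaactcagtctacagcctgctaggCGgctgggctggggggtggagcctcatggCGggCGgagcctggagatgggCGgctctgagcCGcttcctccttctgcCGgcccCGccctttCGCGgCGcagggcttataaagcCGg

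In the first window, 5 measured cytosines had mean levels from 68.1% to 98.1%. In the second, 19 measured cytosines had mean levels from 0% to 2.93%.

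Total coverage, summed over listed cytosines, was 33619981 to 131446104 reads per library. Mean autosomal methylation over the shared cytosines was 5.15% to 6.06% in Wt and 5.36% to 5.92% in Tg animals. The library labelled Wt male had a mean level of 19.9% on chromosome X and 0.0696 chromosome Y positions per 1000 autosomal ones, beside 20.7% to 22.98% and 0.0584 to 0.151 in the 7 libraries labelled female, and 5.50% to 5.67% and 0.347 to 0.503 in the Tg males. Its values went against its label, so it is called the library labelled Wt male. The models and the relabellings that keep the sexes used the label as given. If the label is wrong, all Wt animals were female while the Tg animals were of both sexes. Genotype and sex would then be partly confounded in every comparison of Wt with Tg. The genotype differences were also computed without this library. Coverage was an even number at 67.2% to 81.7% of cytosines per library, and at 64.98% to 78.8% of those in the 8 genes. The fragments were sequenced from both ends, and whether both ends of 1 fragment were counted at the same cytosine was not tested. Read counts are therefore given as deposited, and limits drawn from them cover counting error only.

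Measured cytosines of the 8 genes were mostly unmethylated and mostly near a start. Of the 1778, 1337 lay within 1000 bp of an annotated start, with a mean level of 2.40%. The 211 intronic cytosines farther from a start averaged 34.2%, and the 214 in coding sequence 10.9%. Levels fell with CpG density, as they did across the series: where 10 or more CpGs lay within 100 bp, the mean was 1.20% in these genes and 8.36% over all cytosines, and where 0 to 3 did, it was 49.3% and 62.4%. Of the 865 tested cytosines, 816 (94.3%) had a mean level under 5%, against 86.5% of all tested cytosines, and 31 (3.58%) had 10% or more, against 10.3%. The opposite cytosines of a CpG gave close values: of 724 CpGs measured on both strands, 708 differed by no more than 10 points, and of the 76 with a mean level of 10% or more, 61 did, with a median strand difference of 5.13 points.

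**Figure D1:**
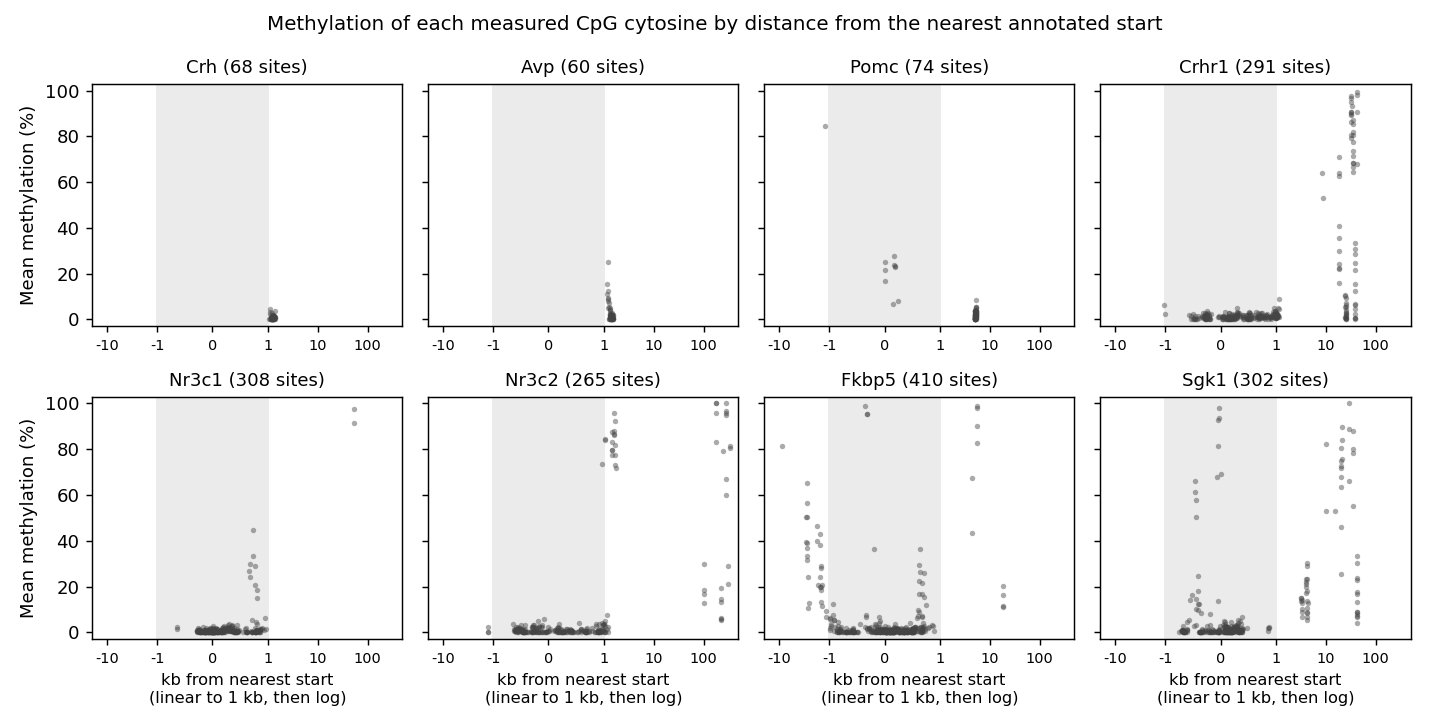
Mean methylation level of each of the 1778 measured cytosines (%, vertical axis) against its distance from the nearest annotated start of its gene (kb, horizontal axis, linear to 1 kb and logarithmic beyond it, with the 1000 bp either side shaded), 1 panel per gene. Most points within the shaded band lie near 0%, Crh and Avp have no point in it, and levels above 50% lie mainly outside it, with exceptions in Fkbp5, Sgk1 and Nr3c2.

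Among the hormones, Crh was nearly unmethylated and Avp mostly so in the stretch that was measured, which was not their promoter. Crh (ENSMUSG00000049796.4, minus strand of chromosome 3, 19693401 to 19695396) had 68 measured cytosines, all in the coding part of its exon 2 from 1080 to 1419 bp after the start, and all 68 were under 5%. None of its cytosines within 1000 bp of the start was covered in 6 libraries. The consensus cAMP response element (TGACGTCA) upstream of Crh, at 155 to 162 bp before the start, is a well-known binding site of the factor CREB, and the nearest measured cytosine was 1235 bp away. It is shown here on the minus strand of mm10 with the element in capitals, since methylation at its CpG was not measured.

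Crh upstream, chr3:19695525-19695584: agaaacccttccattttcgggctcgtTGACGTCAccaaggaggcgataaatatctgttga

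Over the 12 Crh cytosines covered in all libraries, the mean level was 0.427%, 1.15% and 2.80% in Wt females 1 to 3, and 0% for the library labelled Wt male. The Tg animals ranged from 0% to 1.21% with a median of 0.307%. Wt female 3 was the highest, and at 1 of the 12 cytosines, 19694101, it had 19.05% of 42 reads where the other 11 animals had 0%.

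Avp (ENSMUSG00000037727.6, minus strand of chromosome 2, 130580620 to 130582554) had 60 measured cytosines from 1177 to 1513 bp after its start, 45 in coding sequence with a mean of 1.12% and 15 intronic with a mean of 7.46%. The highest levels lay at one end of the stretch. At the intronic cytosine 130581376, levels were 27.0%, 0% and 2.38% in Wt females 1 to 3 and 11.4% in the library labelled Wt male. In Tg animals they ran from 0% to 41.7% with a median of 7.02%, and the highest was Tg female 4. The groups overlapped over nearly their whole range.

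Pomc (ENSMUSG00000020660.6, plus strand of chromosome 12, 3954951 to 3960642) was partly methylated at its start. Its 9 measured cytosines from 3 to 235 bp after the start averaged 19.5%, between 6.63% and 27.6% each, and none was under 5%. The 6 covered in all libraries all lie in intron 1, from 145 to 235 bp after the start. Their mean was 18.7%, higher than at 94.9% of the 16335 promoters measured alike, but it includes no cytosine before the start. In contrast, the 64 cytosines in its coding exon, 4951 to 5378 bp from the start, averaged 1.97%. Upstream of the start, 1 cytosine at 3953731 stood at 84.4%.

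At the Pomc start the level was 31.9%, 11.0% and 18.6% in Wt females 1 to 3 and 13.3% in the library labelled Wt male. Tg animals ranged from 9.82% to 28.3% with a median of 18.8%. Wt averaged 18.7% ± 9.36 (SD, n = 4) and Tg 18.7% ± 6.74 (SD, n = 8), and the means differed by 0.0214 points, less than the spread among animals (two-sided exact permutation test over animals, p = 1). Wt female 1 was the highest, and at 1 of these cytosines, 3955139 in intron 1, it had 72.7% of 22 reads where the other animals had 8.89% to 27.9%.

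Of the receptors, Crhr1 (ENSMUSG00000018634.10, plus strand of chromosome 11, 104132855 to 104175523) had the most tested cytosines, 192. Its 198 cytosines within 1000 bp of the start averaged 1.23%, and each was under 5%. Farther in, levels alternated between stretches. Cytosines 31462 to 31533 bp from the start averaged 89.5%, those at 35629 to 35939 bp averaged 75.01%, and those at 38485 to 38887 bp, which hold both called cytosines, averaged 13.5%. The 3 measured coding cytosines near the end of the gene averaged 96.0%.

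Nr3c1 (ENSMUSG00000024431.15, minus strand of chromosome 18, 39410545 to 39519421) was nearly free of methylation at its main starts. The 245 cytosines around the start of Nr3c1-201 averaged 0.736%, and the 51 around that of Nr3c1-203 averaged 0.490%. The 10 cytosines nearest to the start of Nr3c1-202, which lie in coding sequence 656 to 947 bp after it, averaged 24.8%, with animals from 9.19% to 42.5%. None of these 10 was covered in all 12 libraries. The only 2 measured cytosines in an intron far from a start were at 94.4%.

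Nr3c2 (ENSMUSG00000031618.13, plus strand of chromosome 8, 76899442 to 77245012) had 3 starts that were as low, 0.837% at Nr3c2-204, 1.15% at Nr3c2-203 and 1.28% at Nr3c2-202. The single cytosine near the start of Nr3c2-201, measured in 11 animals, was at 73.5%. Its 19 coding cytosines averaged 82.7%, and each was at 50% or more. Its 37 intronic cytosines averaged 30.2%. They include stretches at 85.7% and 94.8%, and 2 partly methylated ones that were covered in all libraries, at 19.4% and 10.9%.

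Fkbp5 (ENSMUSG00000024222.17, minus strand of chromosome 17, 28399094 to 28517527) showed the widest differences between its starts together with Sgk1. The start of Fkbp5-214, inside the main CpG-rich stretch, had 219 cytosines at 0.742%, and that of Fkbp5-202 and Fkbp5-206 had 69 at 1.61%. The 65 nearest to the start of Fkbp5-201, in the same main stretch, averaged 3.04%, with single cytosines from 0% to 98.8%. The 16 cytosines near the start of Fkbp5-209 averaged 16.8%, with animals from 11.9% to 20.9%. The 2 near Fkbp5-210 averaged 95.3%, in only 7 animals. Its 35 intronic cytosines farther from a start averaged 40.3%, and none was under 5%.

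Sgk1 (ENSMUSG00000019970.15, plus strand of chromosome 10, 21882184 to 21999903) has 5 annotated starts, which were methylated to unequal degrees. The cytosines near the starts of Sgk1-202 and Sgk1-201 averaged 0.707% (97 cytosines) and 0.725% (72). Near that of Sgk1-204, 54 cytosines averaged 6.72%, and near that of Sgk1-203, 15 averaged 9.74%. At Sgk1-213, 6 cytosines from 68 bp before to 11 bp after the start averaged 83.9%, and the 11 animals measured there ranged from 71.7% to 93.3%. The lowest animal at this start was far above the highest animal at the other 4, which was 15%. No start of the 8 genes with over 50% methylation was covered in all 12 libraries, so none was tested between genotypes.

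**Figure D2:**
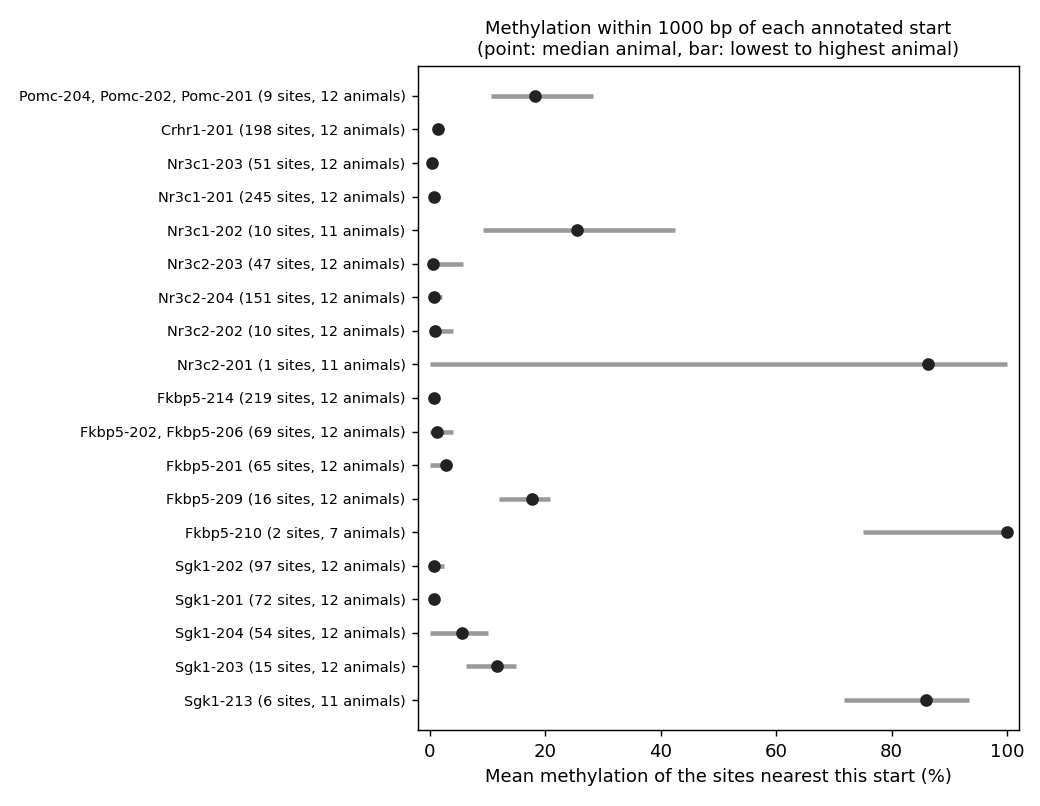
Methylation near each annotated start of the 8 genes that had measured cytosines (%, horizontal axis), with the number of cytosines and animals in each row label. Points are the median animal and bars run from the lowest to the highest animal. Sgk1-213, Fkbp5-210 and Nr3c2-201 (1 cytosine) have medians of 85.9%, 100% and 86.4%, Pomc, Fkbp5-209 and Nr3c1-202 of 18.2%, 17.7% and 25.4%, and the starts with the most cytosines in the other genes lie near 0%.

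Known binding sequences in these loci were searched for measured CpGs, on both strands. In the RefSeq promoter table, windows of 250 bases before and 50 after a start matched 6 of the 8 genes (11 windows), and Crh and Nr3c1 were not in it. The motif TGACG, the core of the cAMP response element, stood in 1 of the 11, the methylated window of Sgk1-213, and in 20.8% of all 32851 promoters. The motif AGAACA, a single arm of the glucocorticoid response element, stood in 3, all of Sgk1, and in 19% of all. The full element TGACGTCA (1.79% of all) and the Egr1 core GCGTGGGCG (0.612%) were in none. Across the whole loci, measured CpGs inside a TGACG averaged between 0% and 1.48%, at 8 positions in Nr3c2, Sgk1, Crhr1, Pomc and Fkbp5.

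The study asked whether Tg and Wt brains differ in CpG methylation. At single cytosines, the answer for the stress-axis genes depended on the error model. A binomial model of methylated and unmethylated reads with sex as covariate, which takes each read as independent, called 4 of 865 cytosines (0.462%) at a Benjamini-Hochberg adjusted p under 0.1 and a read-weighted difference of at least 10 points. The background was 1.72% of all tested cytosines and 1.49% of those on autosomes, where all 8 genes lie, so that the share in these genes was below that of the series. All 4 were among the 31 cytosines with a mean level of 10% or more, of which they were 12.9%, beside 14.5% of all autosomal cytosines at that level. The overdispersion model, which lets animals of a group vary beyond counting error, called 0 of 865, as it did over the whole series (0%), and its smallest adjusted p in these genes was 0.422. At an unadjusted p under 0.05 it passed 96 (11.1%), near the background of 10.9%, and 40 of the 96 (41.7%) were higher in Tg, beside 39.0% over all cytosines. The binomial count moved with the reads: with all counts halved, an alternative chosen after seeing the even coverage, 1 of 865 was called, the first Crhr1 cytosine (adjusted p = 0.00486), and 1406 of all cytosines. It was 7 without the library labelled Wt male and 8 without Wt female 3. The shares of all cytosines called without these animals are not given here, so these 2 counts do not set the 8 genes apart from the series. By direction alone, 432 cytosines (49.9%) were higher in Tg, 298 (34.5%) lower and 135 (15.6%) equal, beside 44.8%, 37.1% and 18.2% of all cytosines, and the median difference was 0 points both here and over all cytosines.

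**Figure D3:**
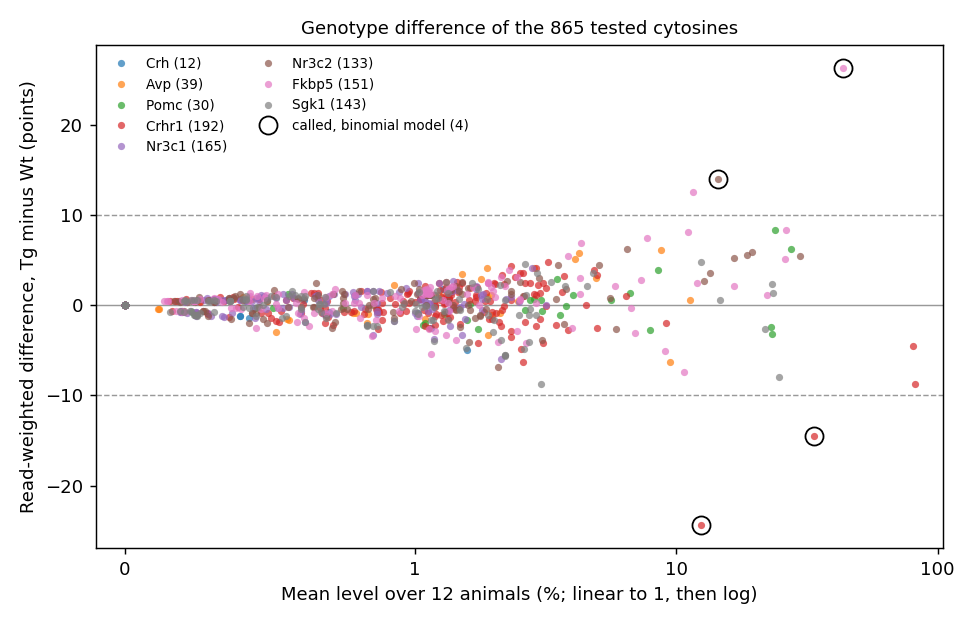
Read-weighted difference between genotypes (Tg minus Wt, percentage points, vertical axis) of the 865 tested cytosines against their mean level over the 12 animals (%, horizontal axis, linear to 1 and logarithmic beyond it), coloured by gene. Dashed lines mark differences of 10 points, and rings mark the 4 cytosines called by the binomial model. Cytosines near 0% differ by a few points at most, and the 5 that pass 10 points all have mean levels above 10%.

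The first Crhr1 cytosine, at 104171340 in intron 8 of 12, was the only one of the 865 at which the ranges of Wt and Tg animals did not overlap (0.116%, beside a background of 0.0709%). Wt females 1, 2 and 3 had 44%, 33.3% and 21.1% of reads methylated, and the library labelled Wt male had 21.8%. Tg animals ranged from 0% to 12.05% with a median of 2.04%, and 4 of the 8 had no methylated read. Those 4 had 14 to 44 reads, which allow levels of up to 6.82% to 21.4%. Wt averaged 30.1% ± 10.9 (SD, n = 4) and Tg 3.61% ± 4.47 (SD, n = 8), and the read-weighted difference was -24.4 points. The binomial model gave an adjusted p of 2.2e-08, the overdispersion model p = 0.000877 and an adjusted p of 0.422. The exact permutation p over animals was 0.00404, the smallest that 4 animals against 8 can give. Any cytosine with ranges apart has this p-value, so it adds nothing to the ranges themselves. The cytosine on the opposite strand was covered in fewer than 6 libraries, so that the difference could not be compared between strands.

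The second Crhr1 cytosine lies 115 bp farther on in the same intron, at 104171455. Its levels were 52%, 33.3% and 68.4% in Wt females 1 to 3 and 28.6% in the library labelled Wt male, against 0% to 44% in Tg animals with a median of 28.9%. The groups overlapped, and the means were 45.6% ± 18.3 (SD, n = 4) and 27.5% ± 13.4 (SD, n = 8). The read-weighted difference was -14.4 points, with a binomial adjusted p of 0.0444 and an overdispersion p of 0.143. The binomial call was lost without Wt female 1 (adjusted p = 0.141) and without Wt female 3 (0.378). On the opposite strand, measured in 11 libraries, the means were 32.4% in Wt and 17.3% in Tg. Between these cytosines, those at 104171367 and 104171417 were at 0.753% and 6.42% and differed by -0.719 and 0.979 points. The first is too low for a drop of 10 points, and the second was not lower in Tg. Over the 4 cytosines of the stretch covered in all libraries, both called ones among them, Wt averaged 20.8% ± 6.80 (SD, n = 4) and Tg 9.52% ± 5.42 (SD, n = 8). This stretch difference is not separate from those at the called cytosines.

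At the Fkbp5 cytosine 28506983, in intron 2 of Fkbp5-202 and 4374 bp from the nearest start, Tg animals were higher on average. Wt females 1 to 3 had 26.7%, 50% and 26.7%, and the library labelled Wt male 21.1%. Tg animals ranged from 16.7% to 81.8% with a median of 55.0%, so that 6 of the 8 were at or above the highest Wt animal and 2, Tg male 1 and Tg female 2, were below the lowest, each with 12 reads. The read-weighted difference was 26.3 points (binomial adjusted p = 0.000174). The overdispersion model gave p = 0.0137 and an adjusted p of 0.444, and the exact permutation test over animals p = 0.206. Its coverage was even in all 12 libraries.

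The Nr3c2 cytosine 77133084, in intron 3 and far from any start, was also higher in Tg. It stood at 4.55%, 8.33% and 3.70% in Wt females 1 to 3, 6.67% in the library labelled Wt male, and 0% to 32.1% in Tg animals with a median of 19.05%. Of the 8 Tg animals, 7 were above every Wt animal, and Tg male 1, with 24 reads, had 0%. The read-weighted difference was 13.96 points (binomial adjusted p = 0.00147), with an overdispersion p of 0.0151 and an exact permutation p of 0.0364. On the opposite strand of the same CpG, Wt averaged 14.8% and Tg 21.9%, a smaller difference in the same direction. With both strands summed the difference was 8.83 points, under the 10 that a call needs, so that the call was lost. Its coverage was even in all 12 libraries, as at the Fkbp5 cytosine.

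**Figure D4:**
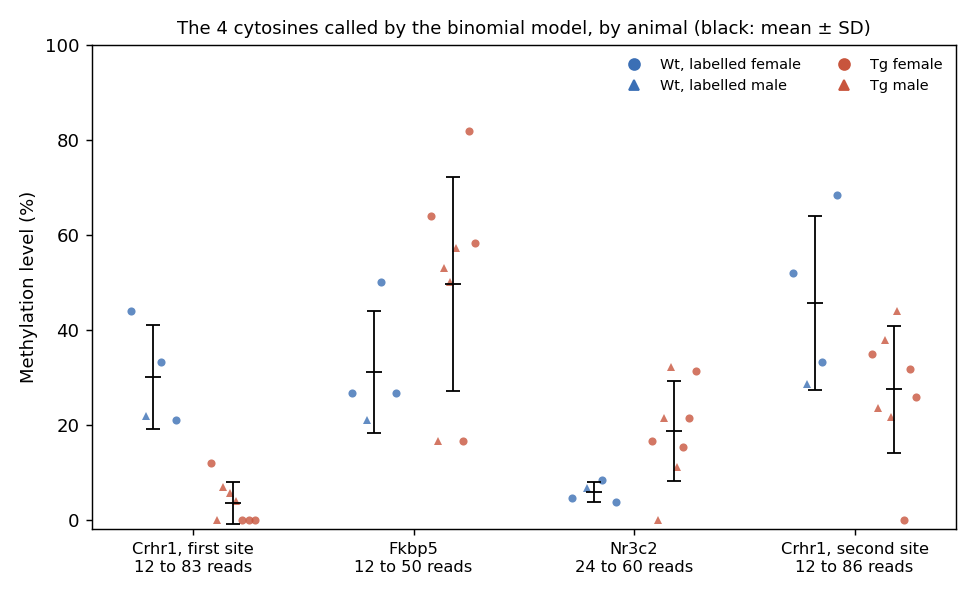
Methylation level (%, vertical axis) in each animal at the 4 cytosines called by the binomial model, with the range of reads per animal under each name. Points are animals by genotype and labelled sex, and black bars are the mean ± SD of 4 Wt and 8 Tg animals. The groups are apart only at the first Crhr1 cytosine, where Wt lies at 21.1% to 44% and Tg at 0% to 12.05%.

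Some cytosines ranged widely within a genotype. The examples are the tested cytosine with the widest range in Nr3c2 and in genes without a called cytosine, a choice that leaves out called cytosines. At Nr3c2 77009541, Tg female 1 had 72.2% and the other 7 Tg animals 0% to 33.3%, while Wt animals had 11.5% to 28.6%. At Sgk1 21998754, in coding sequence, Tg animals had 4.55% to 63.6% and Wt animals 0% to 40%. In Nr3c1, where no tested cytosine averaged 5%, the widest range was at 39489498 in intron 1, with 14.8% in Tg female 2, 18.8% in Tg female 4 and 0% in the other 10 animals.

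Levels were then averaged over promoters (cytosines within 1000 bp of a start) and over the rest of each locus, which gave 13 regions with 3 or more cytosines. The binomial model on their summed reads called 0 of the 13, beside 1.75% of the 25318 regions of all genes. The overdispersion model called 0 as well (background 0%), and 1 of 13 had an unadjusted p under 0.05, the Fkbp5 promoter, against a background of 5.93%. In none of the 13 did the ranges of Wt and Tg animals lie apart (background 0.316%). The median absolute difference was 0.205 points over the 6 promoters and 1.99 points over the 7 other regions, beside 0.280 and 1.08 over all genes.

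The Fkbp5 promoter was slightly higher in Tg animals. Over its 147 cytosines, with 3108 to 11111 reads per animal, it had 1.65%, 1.38% and 1.66% in Wt females 1 to 3, 1.44% in the library labelled Wt male, and 1.53% to 2.71% in Tg animals with a median of 2.03%. The groups overlapped, and 6 of the 8 Tg animals were above every Wt animal. The means were 1.53% ± 0.144 (SD, n = 4) and 1.99% ± 0.365 (SD, n = 8), a difference of 0.461 points (two-sided exact permutation p = 0.0242, 1 of 13 such tests). Keeping the labelled sexes in the relabelling gave p = 0.0343 over 175 relabellings, and the 7 libraries labelled female alone gave 0.537 points with an exact p of 0.171. Adjusted over all regions, the overdispersion model gave 0.838. Without the library labelled Wt male, and likewise without Wt female 2, the exact p was 0.0727, and with at least 20 reads the difference was 0.674 points with an exact p of 0.214.

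The rest of Crhr1, which contains both called cytosines, was lower in Tg when each cytosine counted equally, but not in the models of summed reads. It stood at 12.5%, 10.7% and 13.1% in Wt females 1 to 3 and 9.04% in the library labelled Wt male, and at 7.92% to 10.7% in Tg animals with a median of 9.50%, from 597 to 2192 reads per animal. The mean difference of -1.99 points over 26 cytosines had an exact permutation p of 0.0404, or 0.0686 when the labelled sexes were kept. The read-weighted difference was -0.163 points, with p = 0.988 in the binomial model and p = 0.993 in the overdispersion model. With the reads of each animal summed over cytosines, the difference of the animal means was 0.155 points in the other direction (exact p = 0.812). With at least 20 reads, which leaves out both called cytosines, it was -0.440 (exact p = 0.562). Leaving out Wt female 1, 2 or 3 gave exact p-values of 0.121, 0.0727 and 0.121, and leaving out Tg female 1, 2 or 3 gave 0.0606 each.

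Elsewhere in these genes the genotype difference did not pass the exact permutation test. The rest of Nr3c2, which contains its called cytosine, came nearest. Wt averaged 8.10% ± 2.61 (SD, n = 4) and Tg 12.9% ± 5.25 (SD, n = 8), a difference of 4.82 points (exact p = 0.0889) from 302 to 955 reads per animal. With at least 20 reads this difference was 4.97 points and passed (exact p = 0.0162), as it did without Wt female 1 (exact p = 0.0364) or Tg female 3 (0.0303). The rest of Fkbp5 had 15.1% ± 6.98 and 21.3% ± 10.4 over 4 cytosines, the called one among them, 6.13 points apart (exact p = 0.311). The promoters of Nr3c1 and Nr3c2, the glucocorticoid and mineralocorticoid receptors, differed by 0.108 and 0.186 points (exact p = 0.562 and 0.642), that of Crhr1 by 0.225 (p = 0.392) and that of Sgk1 by -0.254 (p = 0.440). Crh differed by -0.777 points (exact p = 0.149, or 0.0364 without the library labelled Wt male), Avp by 0.517 (p = 0.590) and the coding stretch of Pomc by -0.482 (p = 0.642). These tests do not show that the levels were equal, since groups of 4 and 8 animals leave wide spreads in the partly methylated regions.

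**Figure D5:**
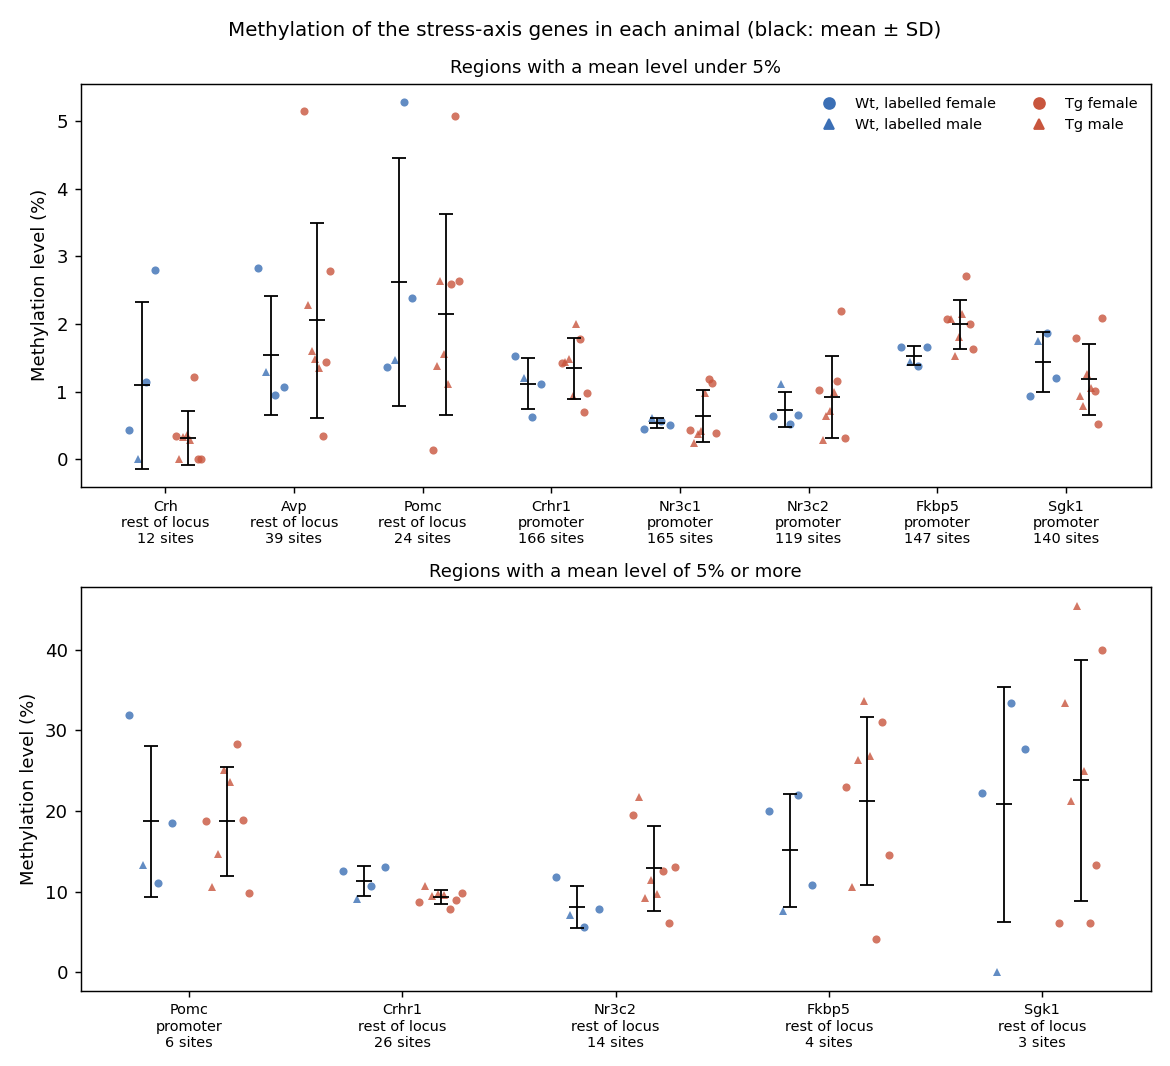
Mean methylation level (%, vertical axis) of the 13 regions in each animal, with Wt left and Tg right of each name and black bars for the mean ± SD of 4 Wt and 8 Tg animals. The upper panel holds regions with a mean under 5% and the lower panel those above. Wt and Tg points overlap in all 13, and the rest of Sgk1, averaged over 3 cytosines, spreads most, from 0% to 45.5%.

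Sex could be compared among the Tg animals, 4 of each sex. None of the 13 regions was called by the overdispersion model, beside 0.0121% of the 24841 autosomal regions, none had an unadjusted p under 0.05 (autosomal background 5.25%), and in none did the ranges of males and females lie apart (autosomal background 2.43%). The smallest exact permutation p was 0.114, for the rest of Crhr1 at 9.83% ± 0.566 (SD, n = 4) in males and 8.85% ± 0.765 (SD, n = 4) in females. The rest of Sgk1 had 31.3% ± 10.7 in males and 16.4% ± 16.1 in females (exact p = 0.143), with 30 to 132 reads per animal over its 3 cytosines. The binomial model gave this region an adjusted p of 6.8e-07 for sex. Its read-weighted difference, male minus female, was 18.4 points, so that it met the rule for a binomial call. The share of all regions called for sex by that model is not given here.

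The rest of Sgk1 was also the region with the largest SD among animals, 14.2 points. Over the 12 animals, the regions whose levels followed it most closely among 8979 other regions outside promoters were those of Gad2 (Pearson's r = 0.860), Gm35288 (0.847) and Sdhb (0.836), or 0.842, 0.791 and 0.815 without the library labelled Wt male. These are descriptions from 12 points, the closest of a large number were chosen, and all of the regions share the depth of the libraries.

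Other genes of the stress axis were taken from a list of 36, with further ligands, receptors, processing enzymes, steroid enzymes, chaperones, coregulators and target genes. Of these, 31 had tested cytosines, 2329 in all. The binomial model called 71 (3.05%, beside 1.72% of all), 11 higher and 60 lower in Tg, in 12 genes. Of the 71, 50 were in Tsc22d3, a glucocorticoid target on chromosome X, and all 50 were lower in Tg. At the Tsc22d3 promoter Wt averaged 21.9% ± 3.15 (SD, n = 4) and Tg 9.83% ± 9.81 (SD, n = 8). Every Wt library had female-like X levels and 4 of the 8 Tg animals were male, so that genotype and sex were partly confounded here. How far the difference went with genotype or with sex was not tested. Without the library labelled Wt male, 17 cytosines of Tsc22d3 were called in place of 50, and 36 in the whole list. On autosomes, 21 of 2178 (0.964%, beside 1.49%) were called, 11 higher and 10 lower, and 19 without that library. The shares of all cytosines called without that library are not given here. The counts of 17, 36 and 19 therefore do not set these genes apart from the series. The overdispersion model called 0 of the 2329, and 273 (11.7%, beside 10.9%) had an unadjusted p under 0.05. Of the 44 regions of these genes, 3 (6.82%) had an overdispersion p under 0.05, near the background of 5.93%, and the model called none after adjustment over all regions. Without the library labelled Wt male there were 4, beside 5.37% of all regions, and Mc3r was not among them. The promoter of the corepressor Ncor1 had 0.300% ± 0.204 in Wt and 1.09% ± 0.780 in Tg. The rest of the receptor gene Crhr2 had 82.6% ± 5.67 and 89.5% ± 3.34, and the promoter of the melanocortin receptor gene Mc3r 4.04% ± 2.49 and 1.49% ± 1.15. The unadjusted p-values of these regions were 0.00715, 0.0377 and 0.0472.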

How the data were processed

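RRBS libraries of 12 brains (4 Wt, 8 Tg) were analysed as deposited, 1 table per animal. According to the study's methods and the submitters' processing notes, paired-end reads were aligned to mm10 with Bismark, and the authors made per-cytosine counts in methylKit (coverage, methylated reads and converted reads), with the strands apart. Versions are not given in the sources used here. The smallest deposited count was 10 reads, so that rarer positions were not analysed here.

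From the deposited read counts, 11 positions with repeated rows were dropped. All positions in the 8 genes were a reference C of a CpG in GRCm38.p6, as were 99.99% of those in 6 or more libraries. Loci came from GENCODE vM21 basic, and promoter sequences from RefSeq. Each tested cytosine had 10 or more reads in every library, so that 1 read moved a level by up to 10 points.

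Groups came from the labels, and replicate numbers, given in the order of the records, only name animals. Genotype was tested with labelled sex as covariate by a binomial likelihood-ratio test and by an F test with a dispersion per site of at least 1, both with Benjamini-Hochberg adjustment over all 980547 cytosines or 25318 regions. For single values, two-sided exact permutation tests relabelled the animals (495 relabellings, 70 for sex in Tg). Both models were tested on simulated data. Python 3.11.15 with numpy 2.4.6 and scipy 1.17.1 was used.

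Named cytosines were all those called or with ranges apart, and the cytosine with the widest range in each gene that had none called, plus Nr3c2. The 8 genes, the list of 36 and the tests were chosen with earlier results of these data known. Alternatives changed the read minimum, the site set, the covariate, the sexes, the strands, the difference, the promoter width and the weighting, and left out each animal. Halved counts, and the list of 36 without the library labelled Wt male, were added after the data were seen.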

Additional observations from a re-analysis of the deposited data

Results flagged for a closer look

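Dixon's test was applied to the highest and lowest animal of each group (4 Wt, 8 Tg, 4 Tg female and 4 Tg male animals) in each of the 13 regions, 52 groups in all, of which chance flags about 1 in 20. It marked 2. In the Nr3c2 promoter, Tg female 3 stood at 2.20%, and the next Tg animal at 1.15%. In the coding stretch of Crh, Tg female 2 stood at 1.21%, and the next Tg animal at 0.362%.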

How the results depend on the processing

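The number of cytosines called by the binomial model was 4 of 865. It became 1 with at least 20 reads, 1 at a difference of at least 25 points, 1 with counts halved, 14 in the libraries labelled female and 44 of 1759 when sites in at least 6 libraries were tested, and lay between 4 and 8 with 1 animal left out. The overdispersion model called 0 under each of these. Among regions, the binomial model called 1 in the libraries labelled female and 0 to 1 with 1 animal left out. Apart from halved counts, the shares called over all cytosines or regions under these alternatives are not given here. The counts therefore show how far the calls moved in these genes, not whether they moved apart from the series. The regions with an exact permutation p under 0.05 for genotype were 2, and became 1 with at least 20 reads (the rest of Nr3c2, while both of the 2 were lost), 1 with reads summed, 1 with the sexes kept and 0 in the libraries labelled female, and 0 to 2 with 1 animal left out. For sex in Tg animals the count stayed at 0 under each alternative run.

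Directions of small differences turned. For genotype, with at least 20 reads, these were Avp (-0.831 points) and the promoters of Sgk1 (0.0794) and Nr3c1 (-0.163). With reads summed they were the rest of Crhr1 (0.155) and of Pomc (0.112). In the libraries labelled female they were the promoters of Sgk1 (0.0216) and Pomc (-1.57) and the rest of Sgk1 (-11.4). With 1 animal left out, the rest of Sgk1 ran from -3.95 to 7.16 points, the Pomc promoter from -2.54 to 4.43 and the rest of Pomc from -0.903 to 0.404. For sex, with at least 20 reads, Avp (0.575), the Pomc promoter (2.74) and the Fkbp5 promoter (0.248) turned, and with reads summed the rest of Crhr1 (-0.740). With 1 Tg animal left out, Avp ran from -1.45 to 0.155, Crh from -0.276 to 0.128, the rest of Nr3c2 from -2.70 to 2.42 and the Pomc promoter from -3.44 to 2.72. The cause was not tested. The 4 called cytosines kept their direction under every alternative in which they were measured. With 1 animal left out, their differences ran from -28.7 to -17.6 points at the first Crhr1 cytosine and from -24.3 to -7.27 at the second. They ran from 22.6 to 30.7 points at the Fkbp5 cytosine and from 11.5 to 15.6 at the Nr3c2 cytosine.

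Wt and Tg animals were different mice, and the labels give no pairing between them, so the comparisons are unpaired. With 10 reads, 1 read is worth 10 points, so that single-cytosine differences near the threshold are poorly determined at this depth.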
